A study of Mus musculus with 6 samples.

Results

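A set of 10 surface antigen genes defines or subdivides the gates by which mouse haematopoietic stem cells are sorted, and their transcripts are described here on all 6 arrays of LSK (lineage- Sca-1+ c-*Kit*+) bone marrow cells. The genes, taken by their names in the array annotation, were *Ly6a*, *Kit*, *Flt3*, *Cd34*, *Slamf1*, *Cd48*, *Ly6e*, *Fcgr3*, *Cd27* and *Cd244*. They had 19 of the 56605 non-control probes, and the 10 names were among 37074 gene names on the array. The cells came from C57BL/6 mice at postnatal day 6 to 8. Of the arrays, 3 held control cells (Atg5w/w;VaviCre+, called wild type in the labels) and the other 3 held Atg5f/f;VaviCre+ cells (called *Atg5* knock out in the labels, Atg5f/f;Vav here). Both groups thus carried the Vav-iCre transgene, which drives Cre recombinase in haematopoietic cells from the Vav promoter, and they differed in the loxP-flanked *Atg5* allele, a gene required for autophagosome formation. The labels do not say whether a sample was 1 mouse or a pool, so the p-values measure only the spread between these samples.

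The LSK gate keeps bone marrow cells that lack lineage antigens and carry 2 surface proteins, Sca-1 (the product of *Ly6a*) and c-*Kit* (the product of *Kit*). SLAM LSK cells, the fraction richest in long-term stem cells, are CD150+ CD48-. CD150 (*Slamf1*), CD48 and CD244 belong to the SLAM family of immune receptors, and CD48 is the ligand of CD244. *Flt3* (CD135) is used to divide multipotent progenitors within the LSK gate, and CD34 and CD27 are further antigens of progenitors. Which LSK cells carry CD34 and CD27 at this age was not tested. CD34 and the low-affinity Fc gamma receptor (*Fcgr3*, CD16) divide myeloid progenitors outside the LSK gate. *Ly6e* is a Sca-1 relative of the Ly6 family, and *Ly6a* and *Ly6e* are both known to be induced by interferons. Both groups were sorted through the same gate on Sca-1 and c-*Kit* protein, so the transcript values describe samples selected on these proteins. The purity of the sorted samples, and whether the gate admitted the same cells in both groups, was not tested.

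Each probe is an oligonucleotide of 60 bases, and the sequences below are those on which the comparisons turn, written from the 5′ end in lower case with the position in the mm9 genome. The first 30 bases are shown for probes that lie near the 3′ end of a transcript. The first 3 genes are those whose brightest probe passed the test. The pair of *Cd34* probes is shown because their changes differed in size, the pair of *Cd244* probes because the brightest carries sequence found on other probes (a run of 23 bases shared with a *Tia1* probe is in capitals), and the *Slamf1* probe because it gave no signal above background.
Ly6a probe, chr15:74825553-74825612, minus strand: tatgagttatagaagctccaaggtgggagt
Ly6e probe, chr15:74789592-74789651, plus strand: tatcattgtacccaccttgtactctgttca
Fcgr3 brightest probe, chr1:172981647-172981722, minus strand: ttacaagcaggccgggatgtttggttcttc
Fcgr3 further probe, chr1:172984129-172984188, minus strand: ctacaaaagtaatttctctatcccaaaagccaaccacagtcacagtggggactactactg
Cd34 brightest probe, chr1:196787392-196787451, plus strand: ccagagatgagaggattgggtgtattctct
Cd34 further probe, chr1:196785280-196785339, plus strand: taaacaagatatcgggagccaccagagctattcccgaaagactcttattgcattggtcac
Cd244 brightest probe, chr1:173515388-173515447, plus strand: TGCACAGAGAAACCCTGTCTCAAtccctaa
Cd244 inner probe, chr1:173507474-173508000, plus strand: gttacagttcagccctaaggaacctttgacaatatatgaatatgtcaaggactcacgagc
Slamf1 inner probe, chr1:173718133-173722451, plus strand: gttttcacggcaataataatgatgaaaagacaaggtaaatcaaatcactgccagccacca

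Of the 19 probes, 15 shared no run of 15 or more bases with a probe of another name. The brightest *Cd244* probe shared runs of 15 to 23 bases with 17 other probes, and a *Kit*, a *Flt3* and an *Fcgr3* probe shared a run of 15 or 16 bases with 1 probe each. Transcripts that no probe represents were not searched, and no annotation of the mm9 build was used here to place the probes in exons, introns or UTRs. The 60 bases of the inner *Cd244* probe were spread over 527 positions of the genome, those of the inner *Slamf1* probe over 4319 and those of the brightest *Fcgr3* probe over 76. *Ly6a* and *Ly6e* lie on the same chromosome, and *Slamf1*, *Cd48*, *Cd244* and *Fcgr3* lie near each other on chromosome 1.

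Values are log2 intensities relative to the 75th percentile of the same array, so a value of 0 is the level below which 75% of spots lie, and they compare arrays for 1 probe but not probes with each other. A difference is the mean of the Atg5f/f;Vav arrays minus that of the control arrays. The tests are moderated tests of limma with Benjamini-Hochberg adjustment over the 32074 probes whose signal the scanner software placed clearly above background on 3 or more of the 6 arrays, and a gene is represented by its brightest tested probe. Among non-control probes, 57.6% to 58.2% were well above background on the control arrays and 51.6% to 54.8% on the Atg5f/f;Vav arrays, and no spot was saturated. The *Atg5* probe read 1.10, 0.93 and 1.06 in the control arrays and 1.46, 1.51 and 1.74 in the Atg5f/f;Vav arrays (difference 0.54, SE 0.12, adjusted p = 0.0209 by limma), and whether it lies in the deleted part was not determined, so the directions below rest on the labels. All arrays lay on 1 slide with the groups in different rows, so position on the slide and genotype cannot be told apart. Leaving out control array 1 or control array 2 lowered the number of probes past adjusted p 0.05 from 11024 to 330 or 251, and the *Atg5* probe was among those that no longer passed.

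All 10 genes had a tested probe. The transcripts of *Ly6a*, *Ly6e* and *Fcgr3* rose in Atg5f/f;Vav LSK cells, none of the 10 fell at the threshold, and the other 7 did not pass the test. Over all 20778 genes tested, 34.1% passed in either direction, 18.7% upwards and 15.3% downwards. Of the 18 tested probes of the 10 genes, 7 passed, 4 upwards and 3 downwards, beside 34.4% of all probes. The 3 probes that fell were 2 of *Kit* and 1 of *Flt3*, none of them the brightest of its gene. In 6 of 10 genes and 13 of 18 probes the groups did not overlap, beside 55.9% of all genes and 55.4% of all probes. The median difference of the 10 genes was 0.021, against -0.032 over all genes, whose quartiles were -0.39 and 0.32.

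The count of genes that passed depended on the setting. Of the 10 genes, 6 passed, with *Kit*, *Flt3* and *Cd244* lower beside the 3 that rose, after normexp background correction, after quantile normalisation, with the 75th percentile taken over probes detected on all arrays, and with an intensity trend in the variance model. Of all 32074 probes, 11517, 8419, 13459 and 12180 passed in these settings, in that order, against 11024 in the reported one. With the percentile over detected probes, 10088 of all probes were called lower and 3371 higher. A single gene, *Ly6a*, passed without control array 1 and likewise without control array 2, where 330 and 251 of all probes passed.

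**Figure D1:**
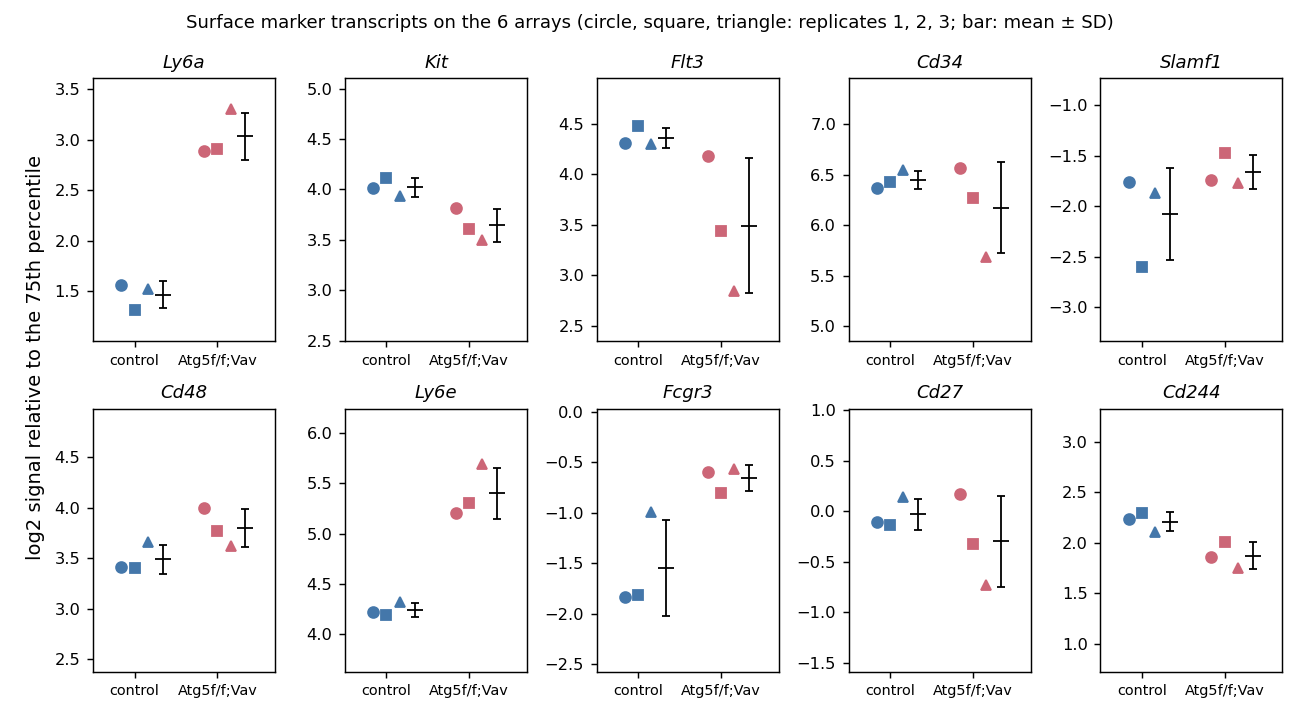
Log2 signal relative to the 75th percentile of each array (vertical axes, each panel with its own range) of the brightest probe of the 10 genes, with the 3 control arrays in blue and the 3 Atg5f/f;Vav arrays in red; circles, squares and triangles are replicates 1, 2 and 3, and bars are the mean ± SD. The groups stand apart in *Ly6a*, *Ly6e* and *Fcgr3*, where Atg5f/f;Vav arrays are higher, and in *Kit*, *Flt3* and *Cd244*, where they are lower, while *Cd34*, *Slamf1*, *Cd48* and *Cd27* overlap.

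Among the antigens that define the LSK gate, *Ly6a* rose and *Kit* gave lower values. *Ly6a* encodes Sca-1, a GPI-anchored protein of the Ly6 family. Its probe read 1.56, 1.31 and 1.53 in the control arrays and 2.89, 2.91 and 3.30 in the Atg5f/f;Vav arrays. The lowest Atg5f/f;Vav array thus lay above the highest control array, and the gap between the groups exceeded the range within either. The mean was 1.47 ± 0.13 (SD, n = 3) in control cells and 3.04 ± 0.23 (SD, n = 3) in Atg5f/f;Vav cells, which gave a difference of 1.57 (SE 0.15, 95% interval 1.21 to 1.93, adjusted p = 0.00623 by limma), or 2.97-fold. This difference stood at the percentile 98.9 of all genes. *Ly6a* passed with any single array left out, with adjusted p between 0.00588 and 0.0405. In these bulk samples, more cells of one type and more RNA per cell cannot be told apart, here and for every gene below.

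*Kit*, the receptor of stem cell factor, had 3 tested probes, and all gave lower values in the Atg5f/f;Vav arrays with no overlap between the groups. The brightest *Kit* probe (chr5:76052394-76052453) read 4.01, 4.12 and 3.93 in the control arrays and 3.82, 3.61 and 3.50 in the Atg5f/f;Vav arrays. Its difference of -0.38 (SE 0.13, 95% interval -0.68 to -0.078) did not pass (adjusted p = 0.0563 by limma), which was the closest miss of the 10 genes. The other *Kit* probes carry the name of a cDNA, AK047175, and lie directly beside each other (chr5:76048202-76048261 and chr5:76048262-76048321), so they are not independent of one another. The first of these read 0.71, 0.81 and 0.76 in control cells and 0.24, 0.33 and -0.15 in Atg5f/f;Vav cells, and the second read 1.72, 1.83 and 1.81 against 1.14, 1.36 and 0.84. On these dimmer probes the signal fell by 0.62 (adjusted p = 0.023 by limma) and by 0.67 (adjusted p = 0.0207). The adjusted p was 0.0713 to 0.0866 for these probes without control array 1 or control array 2, and the first also missed without control array 3 (0.0531). The brightest probe minus the first of these was higher by 0.25 in the Atg5f/f;Vav mean, and minus the second by 0.29. Both differences overlapped between the groups, and a probe-specific change was not tested. The brightest probe passed without Atg5f/f;Vav array 1 (adjusted p = 0.0383), and when all tested probes of *Kit* were averaged, the adjusted p was 0.0232.

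*Ly6e*, the Sca-1 relative that is widely transcribed in blood cells, also rose. Its probe read 4.22, 4.19 and 4.32 in the control arrays and 5.20, 5.30 and 5.69 in the Atg5f/f;Vav arrays. Both genes were highest in Atg5f/f;Vav array 3. The mean was 4.25 ± 0.070 (SD, n = 3) in control cells and 5.4 ± 0.26 (SD, n = 3) in Atg5f/f;Vav cells, so they differed by 1.15 (SE 0.15, 95% interval 0.79 to 1.51, adjusted p = 0.0114 by limma), or 2.22-fold, at the percentile 97.9 of all genes. The call was lost without control array 1 (adjusted p = 0.0584) and without control array 2 (adjusted p = 0.061), while the difference stayed between 1.0 and 1.25 with any array left out.

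Of 14 other genes of the Ly6 family and its neighbourhood, 9 were tested, 3 rose and 1 fell, with a median difference of 0.56. Over all genes, 18.7% rose and 15.3% fell. *Ly6g* and *Ly6c1* rose by 0.71 (adjusted p = 0.0149) and 0.59 (adjusted p = 0.0168), and *Lypd2* fell by 0.55 (adjusted p = 0.0209). The third call upwards was *Ly6c2*, at 0.56 (adjusted p = 0.0174), whose sequence is nearly identical to that of *Ly6c1*, so the pair may share signal. None of the 9 passed without control array 1 or without control array 2.

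*Ly6a* and *Ly6e* stood beside a set of interferon-induced genes that does not contain them. Of its 23 genes, 22 were on the array and tested, and all 22 rose, beside 18.7% of all genes, with a median difference of 2.41. *Cxcl9*, named after its values were seen, was well above background on 3 arrays only, those of the Atg5f/f;Vav group. It thus entered the test through the group where it is high. With the filter on all arrays, 20 of the genes were tested and all 20 rose, with a median of 2.23. *Iigp1*, an immunity-related GTPase, read -0.21, -0.045 and -0.33 in control cells and 4.01, 4.48 and 5.19 in Atg5f/f;Vav cells (difference 4.76, SE 0.28, adjusted p = 0.0026 by limma), and *Gbp6*, a guanylate-binding protein, differed by 4.58 (adjusted p = 0.00547). The summed level of the set was 6.04 to 6.16 in the control arrays and 7.92, 8.13 and 8.79 in the Atg5f/f;Vav arrays. Array 3 was again the highest of its group. Without control array 2, 15 of the 22 passed, the fewest with any array left out. The part of these genes' rise in the change of *Ly6a* and *Ly6e* was not tested.

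**Figure D2:**
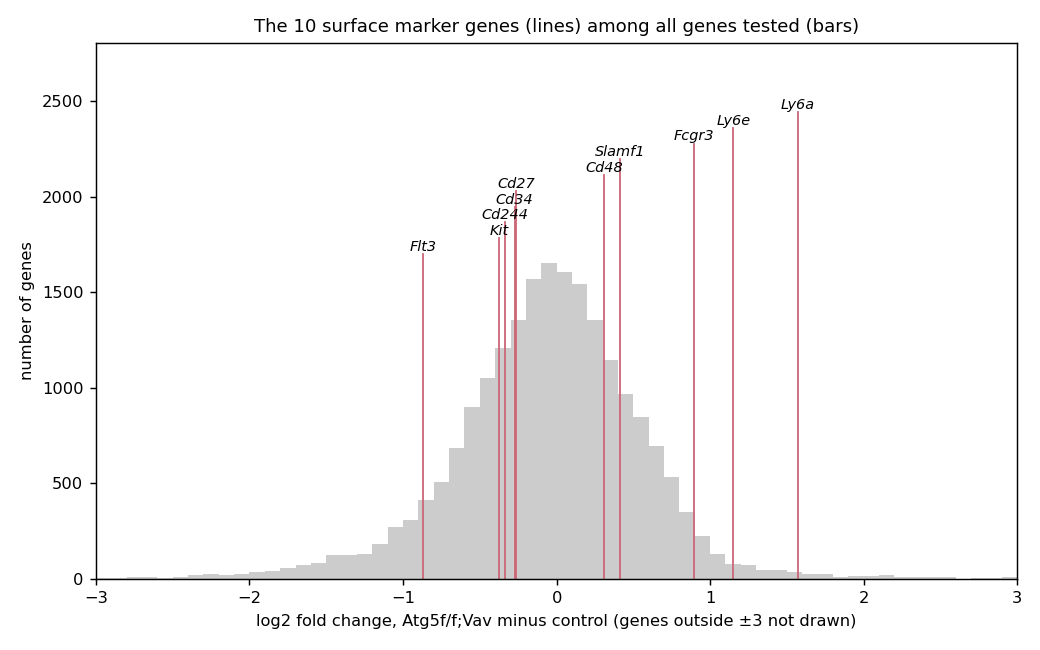
Distribution of the log2 fold change (Atg5f/f;Vav minus control, horizontal axis) over all genes tested, as the number of genes per bin (vertical axis), with a red line at each of the 10 surface marker genes. *Ly6a*, *Ly6e* and *Fcgr3* lie in the upper tail, *Flt3* lies at the percentile 8.05 and the other 6 lie nearer the centre.

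The cytokine receptor *Flt3*, which marks multipotent progenitors with lymphoid potential, gave lower values on both of its probes. The brightest *Flt3* probe (chr5:148142576-148142635) read 4.31, 4.47 and 4.30 in the control arrays and 4.18, 3.44 and 2.85 in the Atg5f/f;Vav arrays. The Atg5f/f;Vav arrays thus spread over 1.33, against 0.18 among the control arrays, and array 1 lay just below the controls. The difference was -0.87 (SE 0.31, 95% interval -1.61 to -0.13, adjusted p = 0.0675 by limma), and the pooled SD within groups of this probe stood at the percentile 92.2 of all probes. The second *Flt3* probe (chr5:148174133-148174192, named for the cDNA AK045865) read -2.18, -2.34 and -2.39 in the control arrays and -3.13, -3.02 and -3.30 in the Atg5f/f;Vav arrays. Its replicates lay closer together, and the signal fell by 0.85 (SE 0.12, adjusted p = 0.0138 by limma), a call lost without control array 1 (adjusted p = 0.066) or control array 2 (0.0666). Both probes thus gave a difference of nearly the same size with unlike spread. The brightest probe passed without Atg5f/f;Vav array 1 (-1.22, adjusted p = 0.0198) and missed with any other array left out.

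Among 7 relatives and ligands of *Kit* and *Flt3* (class III receptor kinases and their ligands), 4 were tested and 1 passed, beside 34.1% of all genes. *Csf1*, the ligand of the macrophage colony-stimulating factor receptor, rose by 0.87 (adjusted p = 0.0123) and missed without control array 1. The ligand *Flt3l* read 0.94, 0.91 and 0.99 in control cells and 0.88, 1.39 and 1.53 in Atg5f/f;Vav cells, and its difference of 0.32 did not pass (adjusted p = 0.197). *Kitl*, the ligand of c-*Kit* made mainly by stromal cells, was not well above background on any array. *Flt3l* is named here after its values were seen, as is *Kitl*.

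**Figure D3:**
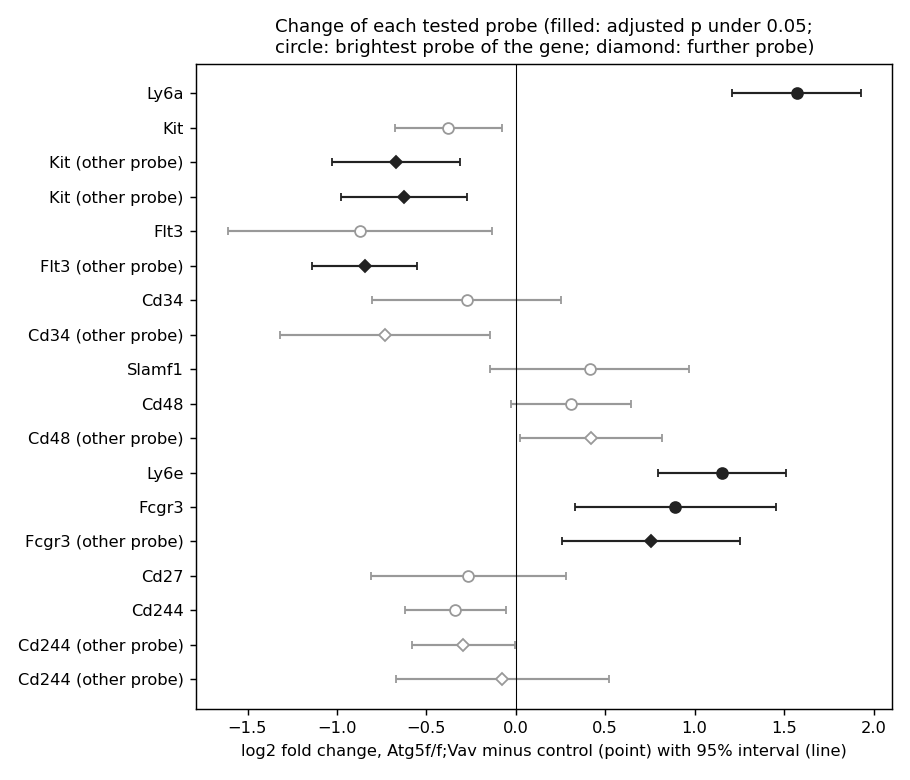
Log2 fold change (Atg5f/f;Vav minus control, horizontal axis) with its 95% interval for each of the 18 tested probes; circles are the brightest probe of a gene, diamonds its further probes, and filled symbols passed adjusted p 0.05. All *Kit* and *Flt3* probes lie below 0 and both *Fcgr3* probes above it, while both *Cd34* probes lie below 0 at unlike distance.

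Among the SLAM antigens, no gene passed the test. *Slamf1*, which encodes CD150, was dim, with -1.75, -2.60 and -1.87 in the control arrays and -1.74, -1.47 and -1.77 in the Atg5f/f;Vav arrays. Control array 2 was the lowest and the remaining 5 arrays lay close together. The difference was 0.41 (SE 0.23, 95% interval -0.14 to 0.97, adjusted p = 0.199 by limma), and it was 0.15 without control array 2. The inner *Slamf1* probe was not well above background on any array, so it gives no value for CD150.

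*Cd48*, whose protein is absent from the surface of SLAM LSK cells, gave slightly higher values on both probes. The brightest probe (chr1:173635201-173635260) read 3.42, 3.40 and 3.66 in control cells and 4.0, 3.77 and 3.62 in Atg5f/f;Vav cells. Atg5f/f;Vav array 3 lay below control array 3, so the groups overlapped. The difference was 0.31 (SE 0.14, 95% interval -0.029 to 0.64, adjusted p = 0.128 by limma). The second *Cd48* probe (chr1:173629721-173629780) read 2.21, 2.16 and 2.57 in control cells and 2.98, 2.64 and 2.57 in Atg5f/f;Vav cells, a difference of 0.42 (adjusted p = 0.0894) in which the nearest arrays of the groups were almost equal. After quantile normalisation the brightest probe differed by -0.0061, so the direction of *Cd48* depended on the scaling.

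*Cd244*, the receptor of CD48, gave lower values on 2 of its 3 probes with no overlap between the groups. The brightest *Cd244* probe read 2.23, 2.29 and 2.11 in control cells and 1.86, 2.01 and 1.75 in Atg5f/f;Vav cells (difference -0.34, SE 0.12, 95% interval -0.62 to -0.055, adjusted p = 0.0648 by limma). This is the probe that shares runs of sequence with 17 others. A second probe (chr1:173539819-173539877), which shares no such run, read 0.50, 0.54 and 0.27 against 0.040, 0.18 and 0.21, a difference of -0.29 (adjusted p = 0.0976). The inner probe read -1.70, -1.44 and -1.18 in control cells and -1.0, -1.66 and -1.89 in Atg5f/f;Vav cells. Its groups overlapped widely and its difference was -0.076 (95% interval -0.67 to 0.52, adjusted p = 0.83), an interval that includes the differences of both other probes.

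Of 9 further members and adaptors of the SLAM family, 5 were tested and 1 rose, beside 18.7% of all genes, and their median difference was -0.025. *Slamf9* differed by 0.74 (adjusted p = 0.0378) at a level near background, being well above background on 4 of 6 arrays, and missed without either of control arrays 1 and 2 or Atg5f/f;Vav arrays 1 and 3.

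Of the antigens that divide progenitors, *Fcgr3* rose and *Cd34* did not pass the test. *Fcgr3* encodes CD16, a low-affinity receptor of IgG. Its brightest probe read -1.83, -1.81 and -1.0 in the control arrays and -0.59, -0.80 and -0.57 in the Atg5f/f;Vav arrays. Control array 3 lay close to the Atg5f/f;Vav arrays and the other control arrays lay well below. The means were -1.55 ± 0.48 (SD, n = 3) in control cells and -0.65 ± 0.13 (SD, n = 3) in Atg5f/f;Vav cells, with a difference of 0.89 (SE 0.24, 95% interval 0.33 to 1.46, adjusted p = 0.0302 by limma), or 1.86-fold. The further *Fcgr3* probe read -3.51, -3.42 and -2.77 in control cells and -2.36, -2.64 and -2.45 in Atg5f/f;Vav cells, and it rose by 0.75 (SE 0.21, adjusted p = 0.0341). Both probes again had control array 3 nearest to the other group. The brightest probe kept adjusted p below 0.05 only without control array 3 (0.0233), and the adjusted p lay between 0.0519 and 0.106 without any other array.

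Of 5 other Fc receptor genes tested, 2 rose and 3 did not pass, with a median difference of 0.61, beside 18.7% of all genes that rose. *Fcgrt*, named here after its values were seen, lay the other way (-0.90, adjusted p = 0.0848) with no overlap between the groups. *Fcgr4* rose by 1.09 (adjusted p = 0.0168), and *Fcgr2b*, the inhibitory receptor of the same family, read -2.42, -2.47 and -1.82 in control cells and -1.40, -1.61 and -1.19 in Atg5f/f;Vav cells (difference 0.84, adjusted p = 0.0252). Control array 3 was the highest control array for *Fcgr2b* as for *Fcgr3*. No run of 15 or more bases was shared between the *Fcgr3* probes and those of *Fcgr2b* or *Fcgr4*. Neither of these calls held without control array 1 or without control array 2.

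Genes of early myeloid progenitors also had control array 3 as the highest control array. Their summed level was 6.21, 6.70 and 7.46 in the control arrays and 7.89, 7.69 and 8.03 in the Atg5f/f;Vav arrays. Of the 5 genes, 3 rose, beside 18.7% of all genes, with a median difference of 0.89. The 2 that did not pass are named after their values were seen. *Elane* lay the other way (-0.21, adjusted p = 0.589 by limma) and *Ms4a3* gave higher values (0.64, adjusted p = 0.20). *Mpo*, the myeloperoxidase of primary granules, differed by 1.0 (adjusted p = 0.0391) and *Ctsg*, a granule protease, by 1.91 (adjusted p = 0.0301), and both missed without Atg5f/f;Vav array 1 or 3 as well as without control array 1 or 2. With 1 array left out, *Mpo* kept its call in 1 of 6 fits. All 7 genes of late neutrophil granules fell, by a median of -1.38, and their summed level was 6.29 to 7.35 in control arrays and 5.22 to 6.06 in Atg5f/f;Vav arrays. The part of either list in the change of *Fcgr3* was not tested.

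*Cd34*, a sialomucin of progenitors and endothelium, had 2 probes whose changes differed in size. The brightest *Cd34* probe read 6.36, 6.43 and 6.55 in control cells and 6.57, 6.27 and 5.69 in Atg5f/f;Vav cells. Atg5f/f;Vav array 1 was the highest of all arrays and array 3 the lowest, so the groups overlapped. The difference was -0.27 (SE 0.22, 95% interval -0.80 to 0.25, adjusted p = 0.36 by limma). The further *Cd34* probe read 0.64, 0.60 and 0.60 in control cells and 0.29, 0.062 and -0.70 in Atg5f/f;Vav cells, with every Atg5f/f;Vav array below every control array (difference -0.73, SE 0.25, adjusted p = 0.0583). It passed without Atg5f/f;Vav array 1 (-0.93, adjusted p = 0.0309) or array 3 (-0.44, adjusted p = 0.0363). Both probes are annotated to the same transcript, from its base 2370 and its base 963. The brightest probe exceeded the further one by 5.72, 5.82 and 5.94 in control cells and by 6.27, 6.20 and 6.38 in Atg5f/f;Vav cells. These differences did not overlap and their means differed by 0.46. Of the 6 such pairs of brightest and second probe among the 10 genes this was the one pair without overlap, beside 37.2% of the 7111 pairs of the same kind over all genes.

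*Cd27*, a receptor of the tumour necrosis factor family on progenitors, read -0.10, -0.13 and 0.14 in control cells and 0.17, -0.32 and -0.73 in Atg5f/f;Vav cells. Array 1 of the Atg5f/f;Vav group was the highest of all and arrays 2 and 3 the lowest. The difference of -0.27 (SE 0.23, 95% interval -0.81 to 0.28) did not pass (adjusted p = 0.389 by limma). Of the 3 tested of 4 partners of CD27, the adaptor *Traf2* rose by 0.57 (adjusted p = 0.0207), which missed without control array 1, control array 2 or Atg5f/f;Vav array 2. *Cd70*, the ligand of CD27, was not well above background on any array and is named here after its values were seen.

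**Figure D4:**
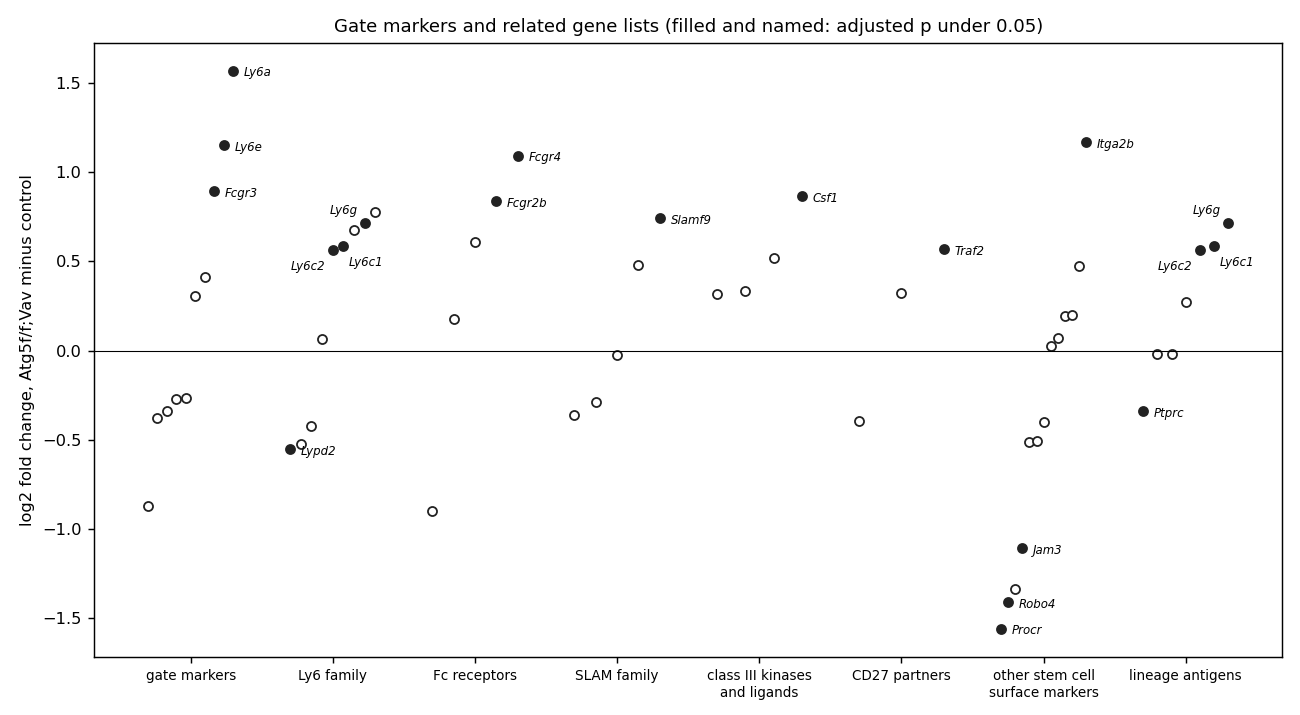
Log2 fold change (Atg5f/f;Vav minus control, vertical axis) of the 10 gate markers and of the tested genes in 7 related lists (horizontal axis), 1 point per gene; filled and named genes passed adjusted p 0.05. *Ly6a* is the highest point drawn, *Procr* is the lowest, and 3 of the 4 calls among other stem cell surface markers lie below 0.

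The spread among the Atg5f/f;Vav arrays differed between the genes. Array 3 held the lowest value of its group for *Kit*, *Flt3*, *Cd34*, *Slamf1*, *Cd48*, *Cd27* and *Cd244*, and the highest for *Ly6a*, *Ly6e* and *Fcgr3*. Of all 6 arrays it held the lowest value for 5 genes and the highest for 3. The range within the Atg5f/f;Vav group was 1.33 for *Flt3*, 0.90 for *Cd27* and 0.88 for *Cd34*, and the range within the control group was 0.18, 0.27 and 0.18 for the same genes. Without Atg5f/f;Vav array 3, the difference of *Flt3* was -0.55, that of *Cd34* -0.030 and that of *Cd27* -0.047.

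Of 13 tested surface markers of stem cells outside the sorting gate, 1 rose and 3 fell, with a median difference of -0.40. Over all genes, 18.7% rose and 15.3% fell. *Procr*, the endothelial protein C receptor (CD201), read 2.52, 2.46 and 2.33 in control cells and 1.49, 1.27 and -0.12 in Atg5f/f;Vav cells (difference -1.56, SE 0.40, adjusted p = 0.0273). *Robo4* read 3.30, 3.49 and 3.25 against 2.54, 2.43 and 0.84 (difference -1.41, adjusted p = 0.0442). Array 3 was the lowest for both, as for *Flt3*, *Cd34* and *Cd27*. *Jam3*, the remaining gene that fell, is named after its values were seen and differed by -1.11 (adjusted p = 0.035). *Itga2b* (CD41), an integrin of megakaryocytes and early progenitors, rose by 1.17 (adjusted p = 0.0136). None of these 4 passed without control array 1 or without control array 2, and the 3 that fell also missed without control array 3.

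**Figure D5:**
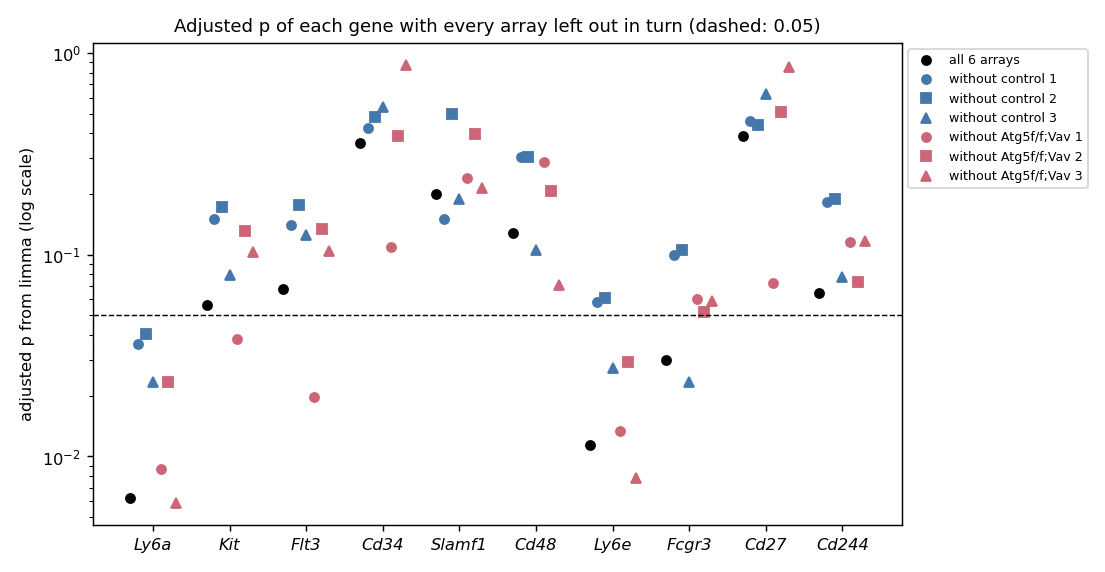
Adjusted p by limma (vertical axis, log scale) of the brightest probe of each gene with all 6 arrays (black) and with each array left out in turn (blue, a control array; red, an Atg5f/f;Vav array); the dashed line is 0.05. *Ly6a* stays below the line in every setting shown, *Ly6e* crosses it without control array 1 or 2, and *Fcgr3* stays below it with all arrays and without control array 3.

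The antigens of the lineage antibody mixture were checked in the same way, since LSK cells are sorted for their absence. The erythroid antigen Ter119, also in the paper's mixture, had no gene in this list. Of 8 genes, 7 were tested, 3 rose and 1 fell, beside 18.7% and 15.3% of all genes. The 3 that rose were the Gr-1 genes *Ly6g*, *Ly6c1* and *Ly6c2*, given above. *Ptprc*, whose B220 isoform the mixture recognises and whose other isoforms mark all leukocytes, read 3.44, 3.49 and 3.27 in control cells and 3.04, 3.11 and 3.04 in Atg5f/f;Vav cells (difference -0.34, adjusted p = 0.04997), a call lost with any single array left out. The T cell antigens *Cd4* and *Cd8b1* and the lymphoid receptor *Il7r* did not pass, with differences of -0.019 (adjusted p = 0.915), 0.27 (adjusted p = 0.461) and -0.019 (adjusted p = 0.976), and the signs of these 3 changed in other settings. *Cd8a* was not well above background on any array.

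Lists of genes known from other cell types were measured beside the gate markers. The summed level of a list is led by its brightest probes, and cell content was not tested. The counts below stand beside 18.7% of all genes that rose and 15.3% that fell. Of 10 erythroid genes 5 rose, *Car1* and *Gata1* the most at 3.80 and 3.0, and 4 fell, *Slc4a1* and *Hba-a1* the most at -2.29 and -2.26. The summed erythroid level was 7.81 to 8.99 in control arrays and 6.41 to 7.17 in Atg5f/f;Vav arrays. Of 6 stromal and endothelial genes tested, 4 fell, among them *Col1a1* and *Col1a2*, and their summed level was 1.68, 4.97 and 4.61 in the control arrays and 0.32 to 0.87 in the Atg5f/f;Vav arrays. *Col1a1* was well above background on 3 of the 6 arrays, all of them control arrays, so it entered the test only through that group. With 1 array left out, 0 to 3 of the 6 genes passed as lower, 0 without control array 2 and 3 without control array 1. Of 6 mast cell, basophil and eosinophil genes, *Ms4a2* rose (2.96) and the other 5 did not pass, with differences in both directions. Of 6 B cell genes, 1 passed, *Cd79a*, which rose near background (0.95). Of 4 megakaryocyte genes tested, *Ppbp* and *Gp9* fell, and the 2 that did not pass gave higher values. *Ppbp* was well above background on 3 of the 6 arrays, all of them control arrays, so it entered the test only through the group where it is high. No macrophage, T cell or NK cell gene passed. The summed levels lay between 4.16 and 5.29 for macrophage genes, 2.91 and 3.56 for B cell genes, 2.51 and 3.34 for T and NK cell genes, 2.34 and 2.86 for megakaryocyte genes and 2.48 and 3.47 for mast cell, basophil and eosinophil genes, over all 6 arrays. Without control array 1, no erythroid, neutrophil, myeloid progenitor, B cell or megakaryocyte gene of these lists passed, and without control array 2 a single neutrophil gene did. The part of these cell types in the changes of the gate markers was not tested.

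With the 75th percentile taken over probes detected on all arrays, the median of all genes went from -0.032 to -0.24. The percentile scalings differ only by a constant per array, so changes relative to the median gene of each setting are the same in both by construction. On that measure *Ly6a* differed by 1.6 with the percentile scalings and by 1.38 after quantile normalisation, and *Kit* differed by -0.35 and -0.68. *Ly6e* and *Fcgr3* stayed above the median gene, at 1.18 and 0.92 with the percentile scalings and at 0.81 and 1.02 after quantile normalisation. *Cd34* differed by -0.24 and -0.58.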

How the data were processed

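Microarrays measured RNA of LSK cells, sorted from bone marrow into TRIzol, on 3 control and 3 Atg5f/f;Vav samples. The authors deposited the scanner output of each array, made with Agilent Feature Extraction 12.0.3.1 (per the file headers): background-subtracted, detrended spot intensities of a 1-colour array annotated to mm9. A deposited table holds the same signal divided by the 75th percentile over all 62976 spots of an array. Here log2 intensities were set against the 75th percentile over 59305 non-control spots, spots with outlier flags (64 to 81 per array) were left out, and spots of a probe were averaged. The test (limma 3.58.1, R 4.3.3, 2-sided, threshold adjusted p 0.05) covered probes that the scanner software called well above background on 3 or more arrays. A gene's brightest tested probe represents it. Scripts were tested on simulated data. The number of arrays limits the precision: an exact permutation test of 3 against 3 cannot go below p = 0.1. All arrays share 1 slide, so a slide block could not be fitted. The 10 genes and all gene lists were chosen with earlier results of these data known. Outside the 10 genes and the lineage antigens, the text names at most 2 genes per list and direction, those with the largest change past the threshold, and says where it names others. Alternatives were other background corrections, scalings, filters and variance models, the deposited values, the methods' t-test, probe averaging, a replicate block and leaving out each array.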

Additional observations from a re-analysis of the deposited data

How the results depend on the processing

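*Ly6a* kept its direction and passed in every alternative except the methods' t-test after Benjamini-Hochberg adjustment, where no probe of 32074 passed (0 of the 10 genes and 0 of their 18 tested probes; 13541, 5 and 10 at an unadjusted p under 0.05). The number of probes past the threshold was 11024 in the reported setting and 4538 of 56605 with no filter on dim probes. It was 11517 after normexp, 12180 with an intensity trend and 10710 of 28118 with the filter on all arrays. With 1 array left out it was 251 to 10304, lowest without control array 2 (251) and control array 1 (330). The 5540 probes called higher and 5484 called lower became 3371 and 10088 when the percentile was taken over probes detected on all arrays, and 4714 and 3705 after quantile normalisation. Of the 10 genes, 3 passed in the reported setting, 6 after normexp, after quantile normalisation, with the detected-probe percentile and with an intensity trend, 5 with the filter on all arrays and when the probes of each gene were averaged, and 1 to 4 with 1 array left out (1 without control array 1 or 2). Of the 18 probes, 7 passed in the reported setting, 12 after normexp, 11 with the detected-probe percentile and with an intensity trend, 3 with no filter, and 1 to 8 with 1 array left out (1 without control array 1 or 2). Directions turned for *Cd48* after quantile normalisation (-0.0061), for the inner *Cd244* probe after quantile normalisation (0.057) and with 1 array left out (-0.33 to 0.11; 0.054 without control array 3), for *Il7r* after normexp (0.00077), quantile normalisation (0.020), with the deposited values (0.0028) and with 1 array left out (-0.40 to 0.39), for *Cd4* after normexp (0.0084), with the deposited values (0.0028) and with 1 array left out (-0.11 to 0.067), and for *Cd8b1* with 1 array left out (-0.032 to 0.44). Over the 18 probes and 10 genes, 252 of 316 values under alternatives kept direction and side of the threshold, 31 lost the call, 29 gained it and 4 reversed. The cause of these changes was not tested, also for the setting without a filter, in which more probes were tested. Replicate numbers were treated as a name only, since same-numbered arrays deviated together with correlations of -0.065, 0.19 and 0.11. With them as a replicate block 10173 probes, 3 of the 10 genes and 7 of the 18 probes passed, and not every array correlated best with its own number. Probes not above background on any array, such as the inner *Slamf1* probe, give no value.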
